A study of Oryza sativa Indica Group with 6 samples.

Results

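*LOG* and its relatives, the *LOG-like* (*LOGL*) genes, encode the rice enzymes that activate cytokinins, and their signals were followed here across wild-type and *sd37* seedlings. The genes were chosen by name alone, as every probe set that the platform annotation gives to *LOG* or to *LOGL1* to *LOGL10*, and the probe set with the highest mean signal stood for each gene. Of the 11 names, 8 had a probe set, out of 17905 genes with a probe set in all. These were *LOG*, *LOGL1*, *LOGL3*, *LOGL5*, *LOGL6*, *LOGL7*, *LOGL9* and *LOGL10*, with 10 probe sets between them, while *LOGL2*, *LOGL4* and *LOGL8* were not analysed here.

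Cytokinins are adenine-derived hormones that promote cell division in the shoot. Isopentenyltransferases make them as nucleotides that are not active, and a LOG enzyme releases the active free base from the nucleotide in a single step. In rice, *LOG* is named after the *lonely guy* mutant, in which the shoot meristem is not maintained and the panicle is small, so it is known as a gene of meristem activity. The active hormone binds histidine kinase receptors, phosphotransfer proteins carry the signal to the nucleus, type-B response regulators switch on target genes, type-A response regulators are early targets that dampen the response, and cytokinin oxidases break the hormone down.

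Seedlings of *Oryza sativa* ssp. *indica* cultivar 3037 were compared with seedlings of *sd37*, a semi-dwarf line that arose spontaneously in that cultivar and carries a point mutation in the cytochrome P450 gene *CYP96B4*. All plants were given as 2 weeks old, were germinated in water after bleaching of the seed and were grown on MS medium in a phytotron under long days. Each genotype had 3 arrays, titled biological replicates 1 to 3, on the Affymetrix Rice Genome Array, and each value is the signal of a probe set on a linear scale. The mutant is 1 line in 1 cultivar, how many seedlings went into each array was not given in the sources used here, and *CYP96B4* itself is not reported. The labels and methods name seedlings, while a note to the study's gene lists speaks of apices, so the tissue is not fully settled. The samples hold RNA of many cell types, so fewer cells of a type and less RNA per cell cannot be told apart.

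The array medians lay between 32.3 and 56.2, and replicate 1 had the highest, 51.0 in the wild type and 56.2 in *sd37*. Both replicate 1 arrays stood apart from the other 4. Over all 57258 probe sets, the median log2 difference between replicate 1 and replicates 2 and 3 was 0.39, against -0.01 after quantile normalization, 0.48 after centring on the 75th percentile and 0.18 with 16 added to each signal. Among the 28063 probe sets with a mean signal of at least 32 the median was -0.01, so the shift of 0.39 lay in dimmer probe sets. The summed signals of tissue markers differed by replicate number too. The 2 green leaf markers with a probe set, of 6 listed, summed to 113372 to 134744 in replicate 1 and to 38118 to 56097 elsewhere, and both were higher in replicate 1. The 4 floral transition markers, MADS-box genes that mark the change to flowering, summed to 1332 to 2004 in replicate 1 and to 15431 to 18283 elsewhere, so signals of flowering genes were high in replicates 2 and 3 of both genotypes, although the labels name seedlings. The 7 floral organ markers summed to 919 to 1139 against 2269 to 2897, with 3 of them lower in replicate 1 and 1 higher. Of 6 listed root markers 4 had a probe set and summed to 1793 to 1844 against 2357 to 4280, with *LSI1* supplying most of the sum and being the only one with both replicate 1 arrays below all others. Of 5 shoot meristem markers 4 had a probe set, and they summed to 156 to 178 in replicate 1 against 40.4 to 70.3. Of these, 3 were above all other arrays in both replicate 1 arrays, and 0 passed the test between the replicate numbers. Of all probe sets, 27.4% had both replicate 1 arrays above all others and 17.6% had both below. *OSH1* was at 29.5 and 28.4 in replicate 1, at 0.9 and 1.0 in the other wild-type arrays and at 14.0 and 8.6 in the other *sd37* arrays.

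*LOG* itself gave signals of 8420, 2914 and 2931 in wild-type replicates 1, 2 and 3 and of 9967, 3255 and 3644 in *sd37* replicates 1, 2 and 3. The array of replicate 1 was the high one in each genotype, and the genotypes overlapped. Replicate 1 lay 2.89-fold above replicates 2 and 3, a log2 difference of 1.53 (standard error 0.10, 95% interval 1.29 to 1.77, limma adjusted p = 3.06e-05, 2 arrays against 4). The difference was 1.53 among the wild-type arrays and 1.53 among the *sd37* arrays taken alone. It stood above the shift of all probe sets under each scaling, at 1.44 after quantile normalization and 1.62 after centring on the 75th percentile. Between replicates 2 and 3, whose log2 signals differed by 0.09 (standard error 0.12), no such step was seen.

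*LOGL9*, a paralog of *LOG* in the same enzyme family, had the same shape. Its values were 577, 186 and 223 in wild-type replicates 1 to 3 and 555, 167 and 166 in *sd37* replicates 1 to 3. Both replicate 1 arrays were above all others, and the genotypes overlapped. Replicate 1 was 3.07-fold higher, a log2 difference of 1.62 (standard error 0.22, 95% interval 1.13 to 2.11, limma adjusted p = 0.00098). The wild-type arrays alone gave 1.504 and the *sd37* arrays alone 1.74. Over the 6 arrays the log2 signals of *LOGL9* and *LOG* correlated with r = 0.946, a description of arrays that share the step of replicate 1.

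*LOGL5* ran the other way. It gave 1574, 2015 and 2300 in wild-type replicates 1 to 3 and 1480, 2152 and 1909 in *sd37* replicates 1 to 3. Both replicate 1 arrays were the lowest of their genotype and lay under all 4 others. The log2 difference was -0.45 (standard error 0.13, 95% interval -0.74 to -0.16, limma adjusted p = 0.0368), which is 1.37-fold and so short of the 1.5-fold that a call required. It was -0.45 in the wild type alone and -0.45 in *sd37* alone, and with quantile normalization it was -0.35 (limma adjusted p = 0.0968). Over the 6 arrays its r with *LOG* was -0.957, which again describes arrays set apart by the step of replicate 1.

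**Figure D1:**
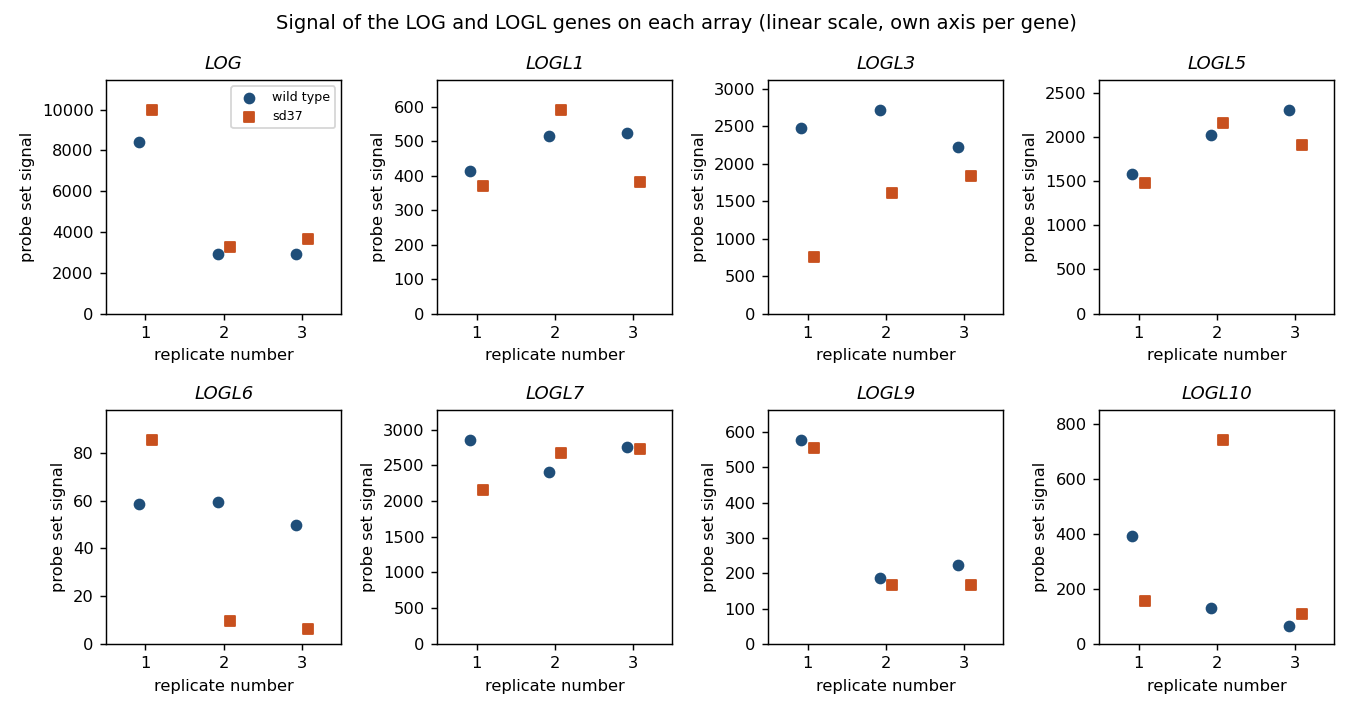
Probe set signal (linear scale, y axis starting at 0 and set for each gene) of the 8 *LOG* and *LOGL* genes by replicate number, with circles for wild-type arrays and squares for *sd37* arrays. *LOG* and *LOGL9* are high in both arrays of replicate 1, *LOGL5* is low there, and *LOGL3* is lower in *sd37* at each replicate number.

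In all, 2 of the 8 genes, *LOG* and *LOGL9*, passed an adjusted p under 0.05 with at least 1.5-fold between replicate 1 and replicates 2 and 3. Both were higher in replicate 1. Over all probe sets 18.4% passed, 8.93% as higher, and among probe sets with a mean signal of at least 32 the share was 36.8%, so the count is no result about the family. Without overlap between replicate 1 and the other arrays were 3 of 8, with *LOG* and *LOGL9* above and *LOGL5* below, against 44.9% of all probe sets, 27.4% as above and 17.6% as below. The calls for *LOG* and *LOGL9* rested on the intensity trend in limma, since without it the adjusted p was 0.0925 and 0.0929, the highest of ranges that began at 8.31e-07 and 0.000467 over the alternatives, and 0 probe sets passed in all, while 15942 had an unadjusted p under 0.05 and 1.5-fold. The summed marker signals given above differed between the same arrays, and their part in the signals of *LOG*, *LOGL9* and *LOGL5* was not tested.

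The remaining genes did not pass between the replicate numbers. *LOGL1* gave 413, 516 and 522 in wild-type replicates 1 to 3 and 370, 590 and 382 in *sd37* replicates 1 to 3. Its probe set is of a type that can bind transcripts of related genes. The arrays of replicate 1 overlapped the others, and the log2 difference was -0.34 (standard error 0.19, limma adjusted p = 0.252).

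*LOGL7* varied least within each genotype, where its log2 signals had standard deviations of 0.13 (wild type) and 0.19 (*sd37*). It gave 2849, 2407 and 2752 in wild-type replicates 1 to 3 and 2158, 2674 and 2724 in *sd37* replicates 1 to 3. The groups overlapped by genotype and by replicate number. The replicate difference was -0.09 on the log2 scale (standard error 0.14, 95% interval -0.40 to 0.23), and the genotype difference was -0.09 (standard error 0.21, 95% interval -0.56 to 0.39). The direction of both turned with the array that was left out.

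**Figure D2:**
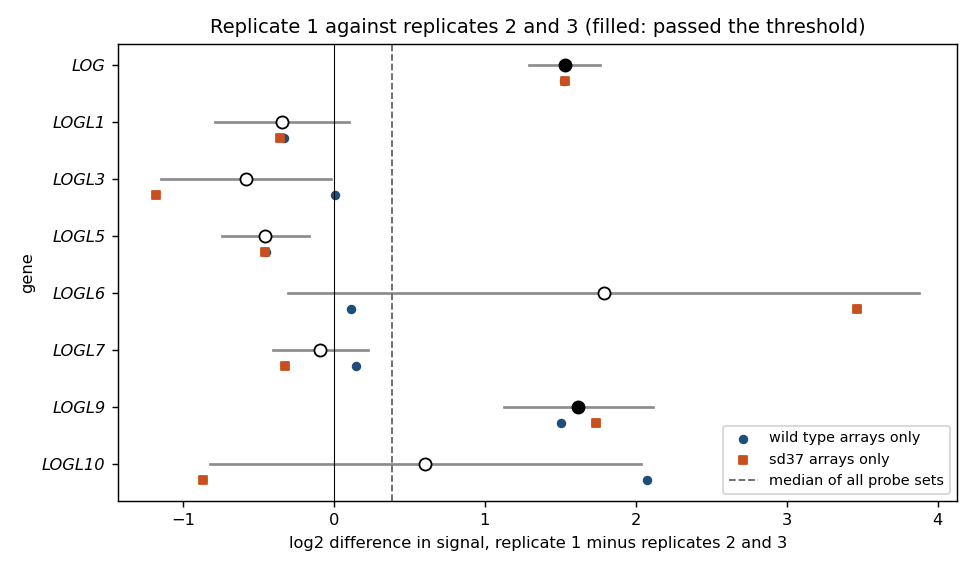
Log2 difference in signal between replicate 1 and replicates 2 and 3 for each gene (large circles, filled where the test was passed, with the limma 95% interval as a line), with the same difference within each genotype beneath (small blue circles, wild type; orange squares, *sd37*) and the median of all probe sets, 0.39, as a dashed line. *LOG* and *LOGL9* lie at 1.53 and 1.62 with both genotypes close to each other, whereas the values of the genotypes lie far apart for *LOGL3*, *LOGL6* and *LOGL10*, a difference that did not pass the test after adjustment. Among probe sets with a mean signal of at least 32 the median was -0.01 instead of 0.39.

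By genotype, 0 of the 8 genes passed in limma after Benjamini-Hochberg adjustment, and 0 of the 57258 probe sets did (0.0%). With an unadjusted p under 0.05 and at least 1.5-fold, 1 of 8 (12.5%), *LOGL3*, was lower in *sd37*, against 2.18% of all probe sets in either direction and 0.98% as lower. Of the 8 genes 2 were on the higher side and 6 on the lower side, with a median log2 difference of -0.11, against 0.02 over all probe sets. Of all probe sets 30087 were on the higher side and 27168 on the lower side. For *LOG*, *LOGL5*, *LOGL7*, *LOGL9* and *LOGL10* the side turned with the array that was left out, so the count is no result about the family. Only *LOGL3* had no overlap between the genotypes, as did 6.07% of all probe sets, 2.87% with *sd37* below.

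*LOGL3* was the gene whose genotypes did not overlap. The wild-type arrays gave 2474, 2716 and 2230 and the *sd37* arrays 761, 1606 and 1839, in the order of replicates 1 to 3. No *sd37* array reached the lowest wild-type array, and *sd37* replicate 1 was by far the lowest. The mean of *sd37* was 1.88-fold lower, a log2 difference of -0.91 (standard error 0.34, 95% interval -1.70 to -0.12, n = 3 arrays for each genotype, unadjusted p = 0.0289 and adjusted p = 1.0 in limma, exact two-sided permutation p = 0.1, the smallest that 3 arrays against 3 allow). By replicate number the log2 difference was -1.70, -0.76 and -0.28. Without *sd37* replicate 1 the mean came to -0.52, and replicates 2 and 3 alone gave -0.52 (limma adjusted p = 0.495, in a range of 0.495 to 1.0 over the alternatives), so the size rested on that array.

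The array of *sd37* replicate 1 also set how *LOGL3* compared between the replicate numbers. Over both genotypes the log2 difference of replicate 1 was -0.58 (standard error 0.25, limma adjusted p = 0.136). It was 0.01 among the wild-type arrays and -1.18 among the *sd37* arrays. Without wild-type replicate 1 the value was -1.18 (limma adjusted p = 0.00461), where *sd37* replicate 1 stands alone for replicate 1 and is assumed to vary like the other arrays. Without wild-type replicate 3 it was -0.82 and passed (limma adjusted p = 0.0369), and without *sd37* replicate 1 it was 0.01. The difference of the genotype effect between replicate 1 and replicates 2 and 3 was -1.18 (standard error 0.25, unadjusted p = 0.00372, adjusted p = 0.573 in limma).

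*LOGL6* gave dim signals, 58.6, 59.2 and 49.7 in wild-type replicates 1 to 3 and 85.2, 9.6 and 6.2 in *sd37* replicates 1 to 3. The wild-type arrays kept together, while *sd37* replicate 1 was the highest array of all and *sd37* replicates 2 and 3 were the lowest and fell under their array's median. The log2 difference between the genotypes was 0.54 in replicate 1, -2.62 in replicate 2 and -3.00 in replicate 3, with a mean of -1.70 (standard error 1.03, 95% interval -4.08 to 0.69, limma adjusted p = 1.0). Its genotype effect differed between replicate 1 and replicates 2 and 3 by 3.35 (standard error 1.19, unadjusted p = 0.0321, adjusted p = 0.587 in limma).

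*LOGL10* was the gene with the widest scatter that was not dim. Its signals were 391, 130 and 65.7 in wild-type replicates 1 to 3 and 157, 740 and 110 in *sd37* replicates 1 to 3. A single array, *sd37* replicate 2, was the highest, and the groups overlapped by genotype and by replicate number. The log2 difference between the genotypes was -1.32, 2.51 and 0.74 by replicate number and 0.64 in the mean (standard error 0.85, 95% interval -1.32 to 2.61). Between replicate 1 and the others it was 0.61 (standard error 0.62, limma adjusted p = 0.534), and without *sd37* replicate 1 it was 2.08 (limma adjusted p = 0.0278), whereas without wild-type replicate 1 it was -0.86. In each of these fits a single array stands for replicate 1 and is assumed to vary like the others.

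For *LOG*, *sd37* was on the higher side at each replicate number, by 0.24, 0.16 and 0.31 on the log2 scale. The mean was 0.24 (95% interval -1.01 to 1.49, limma adjusted p = 1.0) without regard to replicate number. With the replicate number as a block the same mean had an interval of 0.02 to 0.46 (limma adjusted p = 0.811), in a fit where the step of replicate 1 is a term of its own. *LOGL9* was on the lower side at each replicate number, by -0.06, -0.15 and -0.42. *LOGL5* (mean -0.09, 95% interval -0.66 to 0.48) and *LOGL1* (mean -0.14, 95% interval -0.80 to 0.53) had replicate differences on both sides of 0.

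**Figure D3:**
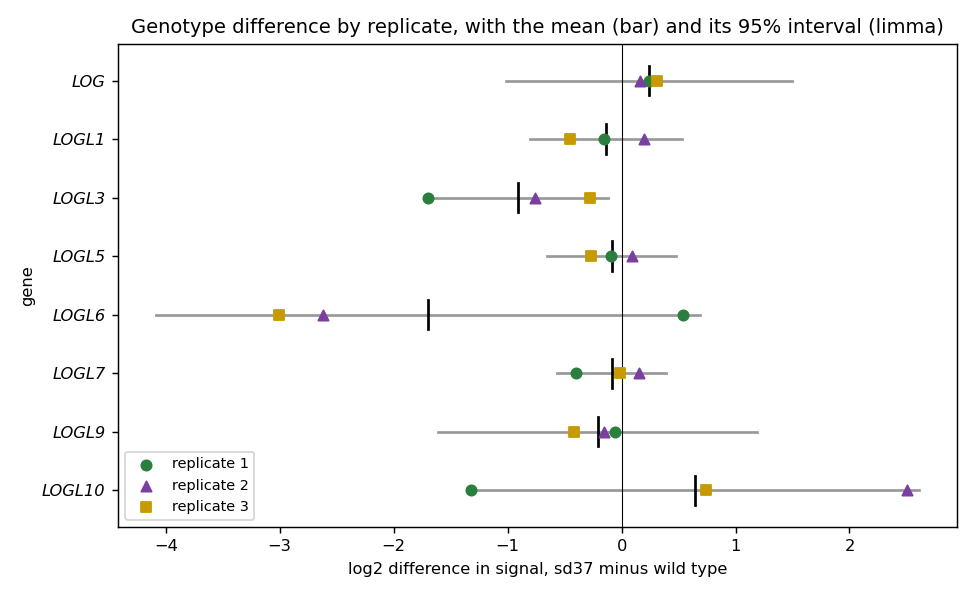
Log2 difference in signal, *sd37* minus wild type, of each gene in replicates 1, 2 and 3 (symbols), with their mean (vertical bar) and its limma 95% interval (grey line). The interval of *LOGL3* alone lies below 0, from -1.70 to -0.12, and *LOGL6* and *LOGL10* spread over both sides of 0.

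The genotype effect differed between replicate 1 and replicates 2 and 3 in 0 of 8 genes after adjustment in limma, as in 0 of all probe sets, and in 2 of 8, *LOGL3* and *LOGL6*, at an unadjusted p under 0.05 with 1.5-fold, against 7.71% of all probe sets. In this comparison replicate 1 has 1 array of each genotype, so its standard errors, here and for the single genes above, hold no spread within replicate 1. An odd array there and a differing genotype effect cannot be told apart. Replicates 2 and 3 differed from each other in 0 of 8 genes after adjustment, as in 0 of all probe sets. Only *LOGL10* differed between them at the unadjusted threshold (log2 difference -1.87, standard error 0.72, unadjusted p = 0.0310, adjusted p = 1.0 in limma), against 3.52% of all probe sets.

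The other genes of cytokinin metabolism and signalling were taken from a list of 70 names, of which 22 had a probe set. They were 5 oxidases, 3 receptors, 3 phosphotransfer proteins, 5 type-B and 6 type-A response regulators. No isopentenyltransferase, hydroxylase or glucosyltransferase of the list was analysed here. Between the genotypes 0 of 22 passed in limma, 11 were on the higher side and 11 on the lower side, and the median log2 difference was -0.002. At the unadjusted threshold 2 of 22 (9.09%) were lower in *sd37*, both type-A regulators, *RR9* and *RR6*, against 2.18% of all probe sets in either direction and 0.98% as lower. *RR6*, *RR2*, *RR1*, *RR5*, *CKX3*, *RR23*, *RR22*, *HK3* and *PHP5* are named here after their values were seen, and the other genes as the 2 with the highest mean signal of each role.

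Among the oxidases, which degrade cytokinins, *CKX4* gave 5111, 8711 and 10773 in wild-type replicates 1 to 3 and 6732, 5697 and 5593 in *sd37* replicates 1 to 3. The mutant was above the wild type in replicate 1 and below it in replicates 2 and 3, with a mean log2 difference of -0.39 (standard error 0.30). *CKX11* had 0.04 (standard error 0.27). Of the receptors, the mean log2 difference was 0.01 for *HK5* and -0.23 for *HK4*, and of the phosphotransfer proteins it was -0.02 for *AHP2* and -0.10 for *AHP1*. The others of these roles had 0.04 (*HK3*) and 0.05 (*PHP5*, 95% interval -1.03 to 1.13), and *PHP5* lay on both sides of 0 by replicate number. The type-B regulators *RR21* and *RR24*, which are transcription factors, had -0.04 and 0.02, and *RR22* was the only gene of the list whose *sd37* arrays (469, 456 and 382) all lay above the wild-type arrays (364, 332 and 319), by 0.36 on the log2 scale (standard error 0.25, limma adjusted p = 1.0, exact two-sided permutation p = 0.1). Such a position was held by 3.2% of all probe sets, so this 1 gene of 22 is near the background.

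The type-A regulators, which are early targets of the hormone, included both genes that met the unadjusted threshold. *RR9* gave 4973, 8397 and 10336 in wild-type replicates 1 to 3 and 6577, 1892 and 2556 in *sd37* replicates 1 to 3. *RR6* gave 2666, 4923 and 7287 against 3578, 1160 and 1649 in the same order. For both, *sd37* lay above the wild type in replicate 1 and far below it in replicates 2 and 3, so the genotypes overlapped.

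By replicate number the log2 difference of *RR9* was 0.40, -2.15 and -2.02, with a mean of -1.25 (standard error 0.48, unadjusted p = 0.0307, adjusted p = 1.0 in limma). That of *RR6* was 0.42, -2.09 and -2.14, with a mean of -1.27 (standard error 0.49, unadjusted p = 0.0319, adjusted p = 1.0 in limma). In replicates 2 and 3 alone the difference was -2.08 for *RR9* (limma adjusted p = 0.0569) and -2.12 for *RR6* (limma adjusted p = 0.102), and neither passed. *RR4* (3506, 3419 and 3480 against 4241, 2160 and 2841) and *RR2* (1375, 1306 and 1683 against 1986, 931 and 1217) had the same order of genotypes at a smaller size. These regulators are close relatives, and whether their probe sets bind one another's transcripts was not tested. *RR1* (371, 304 and 215 against 422, 328 and 218) did not share the order of these genes. Its *sd37* arrays lay on the higher side at each replicate number, by 0.19, 0.11 and 0.02 on the log2 scale. *RR5* was dim, with differences of -0.49, -0.66 and 1.74.

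**Figure D4:**
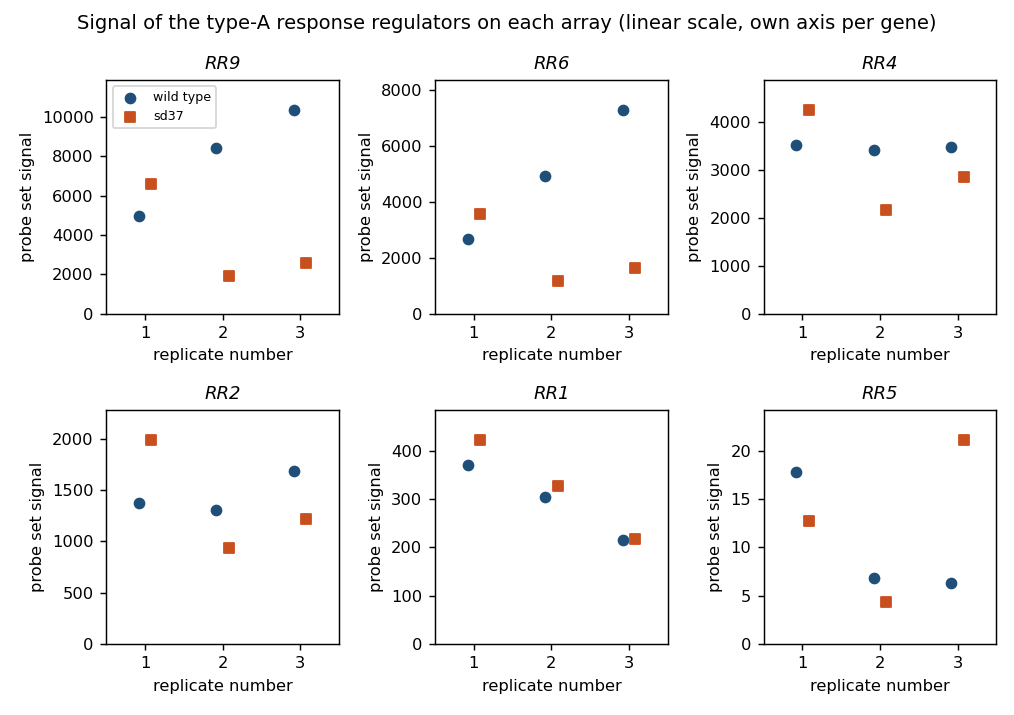
Probe set signal (linear scale, y axis starting at 0 and set for each gene) of the 6 type-A response regulators by replicate number, with circles for the wild type and squares for *sd37*. *RR9*, *RR6*, *RR4* and *RR2* have *sd37* above the wild type in replicate 1 and below it in replicates 2 and 3. *RR1* has *sd37* on the higher side at each replicate number, and *RR5* is dim.

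The genotype effect on 5 of the 22 genes differed between replicate 1 and replicates 2 and 3 at the unadjusted threshold, against 7.71% of all probe sets, and on 0 after adjustment in limma. They were *RR9* (2.49, standard error 0.32), *RR6* (2.54, standard error 0.43), *RR2* (1.01, standard error 0.33), *RR4* (0.75, standard error 0.26) and *CKX4* (1.18, standard error 0.23), so 4 of the 6 type-A regulators were among them. The adjusted p of each lay at 0.573 to 0.585. *LOGL3* went the opposite way, with its genotype difference at its most negative in replicate 1, where these 5 genes were on the higher side in *sd37*. *LOGL6* went the same way as the 5 genes, with 0.54 in replicate 1 against -2.62 and -3.00 in replicates 2 and 3. Here too replicate 1 has 1 array of each genotype, and the spread within replicate 1 is not measured.

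Between the replicate numbers 3 of 22 genes (13.6%) passed, against 18.4% of all probe sets. *CKX3*, an oxidase, was higher in replicate 1, at 252 and 290 against 29.5 to 54.5 elsewhere, a log2 difference of 2.83 (standard error 0.43, limma adjusted p = 0.00191). The receptor *HK5* was lower there, at 3090 and 2903 against 5453 to 6951 (log2 difference -1.01, standard error 0.11, limma adjusted p = 0.000415). The type-B regulator *RR23* was lower too, at 630 and 730 against 1274 to 1781 (log2 difference -1.22, standard error 0.15, limma adjusted p = 0.0006). In both genotypes, then, the arrays in which *LOG* and *LOGL9* were high had more *CKX3* signal and less *HK5* and *RR23* signal. Further genes of the list also had both replicate 1 arrays apart from all others, as did 44.9% of all probe sets. The share that passed was below that of all probe sets, so the count is no result about the pathway. The count was 7 without wild-type replicate 1 and 7 without *sd37* replicate 1, each with a single array left for replicate 1, and 5 without wild-type replicate 2.

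**Figure D5:**
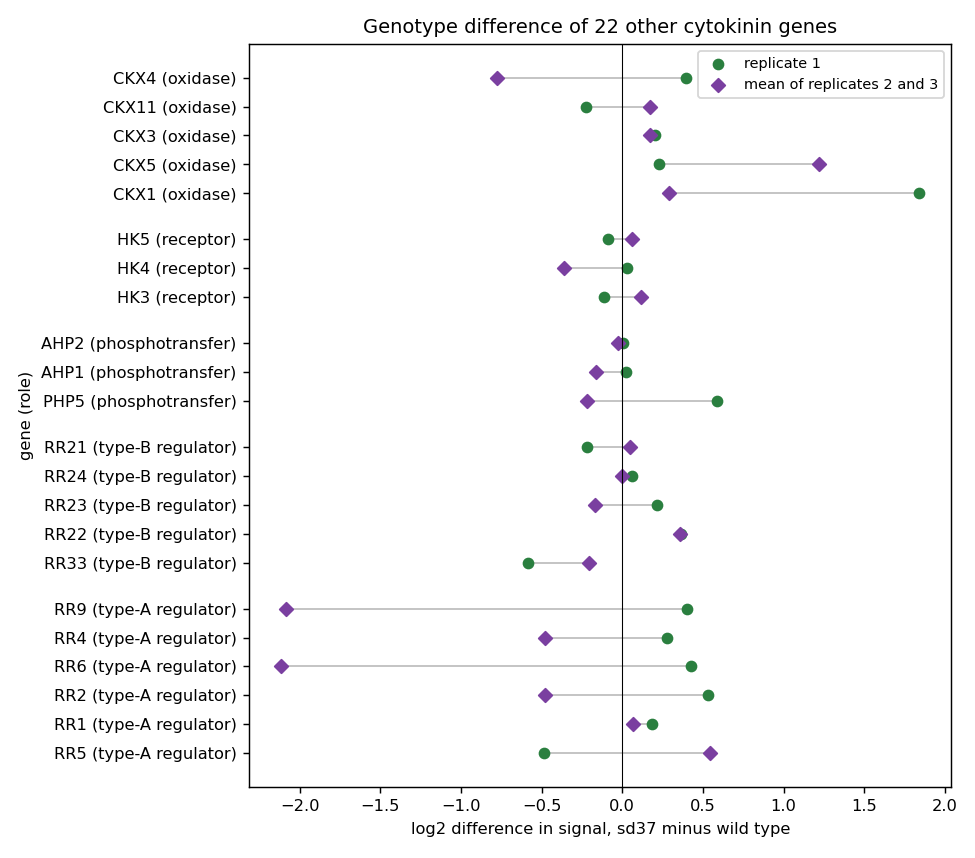
Log2 difference in signal, *sd37* minus wild type, in replicate 1 (circles) and in the mean of replicates 2 and 3 (diamonds) for 22 other cytokinin genes, ordered by role. *RR9* and *RR6* lie near 0.40 and 0.42 in replicate 1 and at -2.08 and -2.12 in the mean of replicates 2 and 3, and the 3 receptors lie between -0.36 and 0.11.

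Of 14547 probe sets with 1 gene and a mean signal of at least 100, the 3 whose log2 signal followed *LOG* most closely over the 6 arrays were those of LOC4335048 (r = 0.999), LOC4328548 (r = 0.998) and LOC4325511, also named *PRXIIC* (r = 0.998). LOC4335048 gave 10160, 4612 and 4641 in wild-type replicates 1 to 3 and 12164, 5149 and 5350 in *sd37* replicates 1 to 3. As in *LOG*, replicate 1 was high in both genotypes, and the likeness includes that shared step.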

How the data were processed

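Total RNA was hybridized to 1 array per replicate, with 3 arrays for each genotype. The methods name a guanidinium and phenol extraction and the labels a column kit. The deposited values are intensity signals of probe sets on a linear scale, which the authors obtained normalized from a service, by an algorithm not given in the sources used here. No detection calls came with them, and precision is limited by the number of arrays.

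Of 57381 probe sets 123 controls were left out. Values under 1 (1.77%) were set to 1, and log2 was taken. Genes were named by the platform annotation. Of the probe sets 22436 had 1 gene, 95 had several and were named for none, and the rest had none. Each probe set was fitted in R 4.3.3 with limma 3.58.1 (lmFit, eBayes with an intensity trend) on 6 arrays, by genotype, by replicate 1 against replicates 2 and 3 with genotype in the fit, and by their interaction. A call required a Benjamini-Hochberg adjusted p under 0.05 over all probe sets and 1.5-fold. The code was tested on simulated data.

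The named genes are all *LOG* and *LOGL* genes with a probe set and, of the pathway list, the 2 with the highest mean signal of each role and any that passed by genotype (0 did). Some further pathway genes are named after their values were seen, as the text says where they stand. *LOGL7* was not on the working list of members and came in by the naming rule. The members, the lists and the split by replicate number were chosen with earlier results of these data known. P-values measure the spread between arrays titled biological replicates, whose separate cultivation is not described.

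Deviations from the genotype mean correlated across probe sets with 0.394, 0.134 and 0.16 for the pairs of replicates 1, 2 and 3. All lay above 0.1, the value taken as a sign of pairing. Each genotype mean includes replicate 1, so its step enters all deviations, and the check cannot decide on the pairing of replicates 2 and 3. Among replicates 2 and 3, unlike numbers gave similar values, 0.164 (wild type 2 with *sd37* 3) and 0.13 (wild type 3 with *sd37* 2). So the check does not show that replicates 2 and 3 are paired, and differences given by replicate number follow the titles. The main genotype fit used no pairing. Alternatives were other scalings, a constant of 16, a minimum mean signal of 32, no intensity trend, the replicate block, the methods' analysis of variance without moderation, and each array left out.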

Additional observations from a re-analysis of the deposited data

How the results depend on the processing

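By genotype 0 *LOG* or *LOGL* genes passed under any of the alternatives, and 0 probe sets passed in all except with the replicate block (6), with quantile normalization and the replicate block together (4, an alternative chosen after seeing the data), with replicate 1 as a batch (10) and with replicates 2 and 3 only (17). The count at the unadjusted threshold, 1249 of 57258, became 2446 with the replicate block and 2405 with quantile normalization and the block. It was 2566 with replicate 1 as a batch, 3131 with replicates 2 and 3 only and 1974 without the intensity trend. With a mean signal of at least 32 it was 307, out of the 28063 probe sets left, and with 1 array left out it was 917 to 2333. The replicate block changed no other call.

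Between replicate 1 and replicates 2 and 3, the 10544 probe sets and 2 genes that passed became 0 and 0 without the intensity trend, and the cause was not tested. With 1 array left out 3 to 7 of the 22 pathway genes passed. With 1 array left out the log2 difference of *LOG* stayed between 1.5 and 1.56 and that of *LOGL9* between 1.504 and 1.74.

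Directions of values that had not passed turned as follows. With 1 array left out the genotype difference ranged from -0.27 to 0.75 for *LOG*, -0.24 to 0.063 for *LOGL5*, -0.16 to 0.020 for *LOGL7*, -0.79 to 0.29 for *LOGL9* and -0.19 to 1.34 for *LOGL10*, and the replicate difference from -1.18 to 0.0078 for *LOGL3*, -0.32 to 0.15 for *LOGL7* and -0.86 to 2.08 for *LOGL10*. The mean of both probe sets gave -0.40 by genotype for *LOG* and 0.10 by replicate number for *LOGL7*, whose genotype difference was 0.068 in replicates 2 and 3. After quantile normalization the interaction was -0.037 for *LOG* and 0.00029 for *LOGL5*. *LOGL6* has no value with a mean signal of at least 32. Low signals limit the precision, since the median standard error of a genotype difference was 1.08 in the dimmest quartile of probe sets and 0.287 in the brightest.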

Other observations

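*LOG* and *LOGL7* each had another, dimmer probe set. That of *LOG* gave 16.6 to 48.8 in the wild type and 2.7 to 34.3 in *sd37*, each time with replicate 1 the highest. It was below the array median on all 6 arrays, and its log2 difference between replicate 1 and the others was 1.75 (standard error 0.98, limma adjusted p = 0.25). That of *LOGL7* gave 52.2 to 58.9 in the wild type, and in *sd37* 53.0 in replicate 1 and 36.7 or less in the others.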
